A study of Mus musculus with 12 samples.

Results

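Colon transcripts were compared between 3 mice given DAPP before dextran sulfate sodium (DSS) and 3 control mice, which are 6 of the 12 Illumina bead arrays of the series. The arrays were chosen by their names in the table of unnormalised signals, and probes were retained with a detection p-value under 0.05 on at least 3 of these 6 arrays. Of 45281 probes 19373 were kept, and they gave 10787 named genes. The mice of the first group received DAPP and then DSS, and those of the control group are labelled only as control. All mice were male and 7 to 8 weeks old, and the tissue is labelled colon; strain, doses, the length of the treatments and any vehicle are not stated in the labels. DAPP appears only as this abbreviation in a series whose title names polyphenols of apple peel, and the array names of this group carry the number 200 with no unit. Both agents set the groups apart, so the effects of DSS and of DAPP cannot be told apart in this comparison. The other 6 arrays, 3 of DSS alone and 3 of DAPP during DSS, were used for the spread between samples and for a direct test of DAPP before DSS against DSS. Samples of a group are labelled biological replicates, and p-values rest on the spread among them.

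DSS is a sulfated polysaccharide that injures the epithelium of the mouse colon when given in the drinking water and is widely used as a model of ulcerative colitis. Luminal bacteria then reach the mucosa, neutrophils and monocytes enter it from the blood, and epithelium, fibroblasts and vessels take part in repair. A healthy colon is dominated by absorptive colonocytes, which take up salt, water and short chain fatty acids, by mucus-secreting goblet cells, and by the smooth muscle of the wall. In RNA from whole colon, fewer cells of a type and less RNA per cell cannot be told apart.

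Levels are given as background-corrected, quantile-normalised log2 intensities, in the order replicate 1, 2 and 3 of each group, and a difference of 1 on this scale is a doubling. Differences are DAPP before DSS minus control, from 1 limma fit over all 12 arrays, with the standard error (SE) and a Benjamini-Hochberg p adjusted over the 10787 genes. A gene is said to have risen or fallen where this adjusted p was under 0.05. Each gene is read by the kept probe with the highest mean, and the level of one gene is not set against that of another.

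Replicate 1 of DAPP before DSS stood apart from the other arrays. Across genes, it correlated with its group mates at 0.878 to 0.883, while replicates 2 and 3 correlated with each other at 0.970 and the control arrays among themselves at 0.977 to 0.983. It had 17650 detected probes, against 20027 and 20410 on its group mates and 18161 to 19292 on the control arrays. Its mean level over 7 colon epithelium markers (Car1, Slc26a3, Krt20, Cdx2, Vil1, Epcam and Muc2) was 10.7, against 12 and 11.6 on replicates 2 and 3 and 12.1, 12 and 12 on the control arrays. Its red blood cell markers averaged 11.8, against 10.1 and 10.1 on its group mates and 9.05, 9.22 and 8.88 on the control arrays, and its B cell and plasma cell markers 8.56, against 6.48 and 7.28 and, in control, 7.30, 6.84 and 7.56. All 7 colon epithelium markers passed the detection filter, and results that rest on replicate 1 are given with and without it.

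Enzymes of the exocrine pancreas, which the colon does not make in quantity, were bright on all 3 DAPP before DSS arrays. The mean level of the 17 tested members was 13.8, 12.1 and 12.9 in DAPP before DSS samples, against 7.98, 6.33 and 6.22 in control samples. Of these 17, 16 had every DAPP before DSS value above every control value, as did 14% of all genes tested. Only amylase (Amy2a5) passed the test, at 4.90 ± 1.46 (SE, adjusted p = 0.047), and it did not without replicate 1 (adjusted p = 0.075). It also missed the threshold without replicate 2 (0.084) or 3 (0.082) of DAPP before DSS and without control replicate 2 (0.14) or 3 (0.17), all as adjusted p. In the same unit the list stood at 8.68, 6.07 and 14.1 in DAPP during DSS samples and 6.35, 13.2 and 13.7 in DSS samples, so bright and dim arrays occur within both of those groups. The regenerating islet genes Reg1 and Reg2, which the pancreas also makes, followed the same arrays, and Reg2 stood at 14.89, 12.75 and 13.59 in DAPP before DSS samples, 6.28, 14.24 and 13.69 in DSS samples and 4.76, 4.65 and 4.51 in control samples. The mean unnormalised signal was 601, 613 and 728 on the DAPP before DSS arrays and 701, 708 and 702 on the DAPP during DSS arrays. It was 487, 483 and 433 on the DSS arrays and 493, 507 and 479 on the control arrays. Before normalisation every array of the DAPP groups was thus brighter on average than every DSS or control array. Arrays with bright and with dim pancreatic enzymes occur at both levels, and the reason for the difference in signal was not tested. DSS replicate 1, with a pancreatic mean of 6.35, had S100a9, an inflammatory gene, at 13.58 and Saa3 at 14.45.

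**Figure D1:**
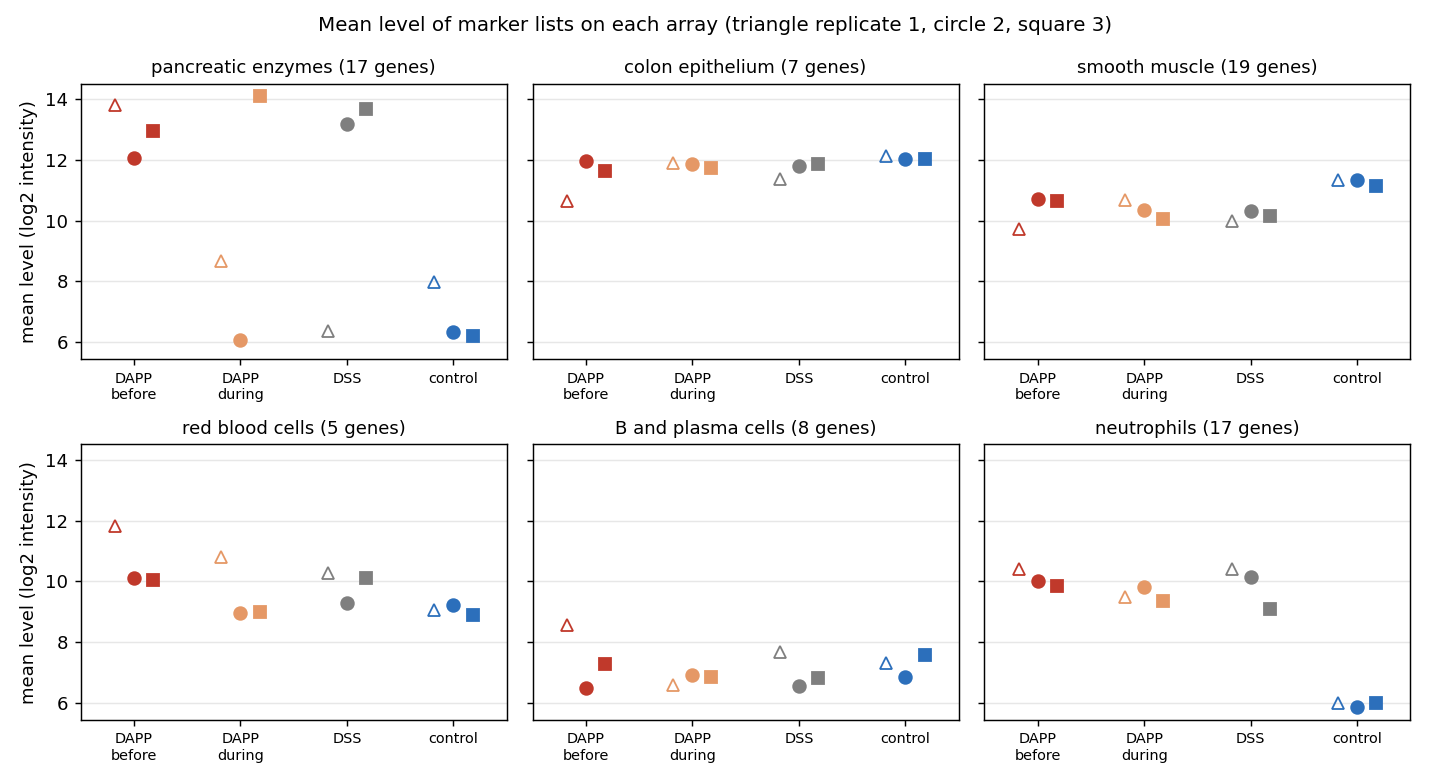
Mean normalised log2 intensity of 6 marker lists (vertical axis) on each of the 12 arrays, by group along the horizontal axis, with triangle, circle and square for replicates 1, 2 and 3. Pancreatic enzymes were at 13.8, 12.1 and 12.9 in DAPP before DSS samples and at 7.98, 6.33 and 6.22 in control samples, and the colon epithelium mean of replicate 1 of DAPP before DSS, 10.7, was the lowest of the 12 arrays.

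Between DAPP before DSS and control, 1376 of 10787 genes changed (12.8%), of which 758 were higher (7.03% of the genes tested) and 618 lower (5.73%) in DAPP before DSS samples. The rises were the larger of these changes: 344 genes moved by more than 4-fold, 266 of them up and 78 down. Among all genes tested, 14% had every DAPP before DSS value above every control value and 16.3% had every value below, and this held for 756 of the 758 genes that rose and 616 of the 618 that fell. Of the genes that rose, 168 were not detected on any control array, and 51 of those that fell were not detected on any DAPP before DSS array. Such genes entered through the brighter group alone, so among the 8566 genes detected on all 6 arrays the share was also taken, and 495 rose (5.78%) and 444 fell (5.18%). List counts below are to be read against these shares, or against 7.03% and 5.73% where all tested members are counted. Without replicate 1 of DAPP before DSS, 767 genes rose (7.11%) and 794 fell (7.36%), and 1108 of the 1376 changed genes passed again in the same direction. Leaving out control replicate 1, 2 or 3 lowered the count of changed genes to 844, 813 and 831. When the arrays were scaled to a common median instead of common quantiles, the median difference of all genes was 0.14 instead of -0.08, and 1106 genes were higher and 299 lower, so small falls below are relative to the quantile scale. With the mean of the pancreatic enzymes as a covariate, a fit made to see what moves with them, 486 genes were higher and 223 lower. Some genes named below were detected on only part of a group: Il1b, Tnf, Retnlg, Hmox1, Cd3e, Icos, Reg1 and Slc7a11 on 1 of 3 control arrays, Reg3b and Cd3d on 2 of 3, Capsl on 1 of 3 DAPP before DSS arrays, and Cyp2f2, Hpgds, Nqo1, Odf3b, Ppargc1a and Tgm3 on 2 of 3.

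The 12 largest rises outside the pancreatic genes were those of Reg3b, Reg3a, Saa3, S100a9, Reg3g, S100a8, Mmp10, Retnlg, Clca4b, Wfdc12, Mmp3 and Chil3, ordered by the fitted difference; Reg3a, Reg3g, Wfdc12 and Chil3 were not detected on any control array, so their size is only bounded, at no less than 131-, 76.0-, 75.9- and 55.0-fold, and their place in the order is not measured. They include antibacterial lectins, an acute phase protein, neutrophil proteins, matrix-degrading enzymes and a macrophage lectin. Among them Reg3a, which was not on the pancreatic lists, was bright or dim with the pancreatic enzymes on the DSS arrays, as given below. The 12 largest falls were those of Mptx1, Mettl7a2, Slc37a2, 2310079G19Rik, Tgm3, Eno3, Ang4, Cyp2f2, Odf3b, Capsl, Trpm6 and Cyp2d12, ordered likewise, with Mettl7a2 not detected on any DAPP before DSS array. These fell genes include secreted products of the epithelium, a magnesium channel and enzymes of drug metabolism. All 12 rises but Reg3a, and all 12 falls, passed again without replicate 1 of DAPP before DSS; Reg3a then had an adjusted p of 0.077.

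**Figure D2:**
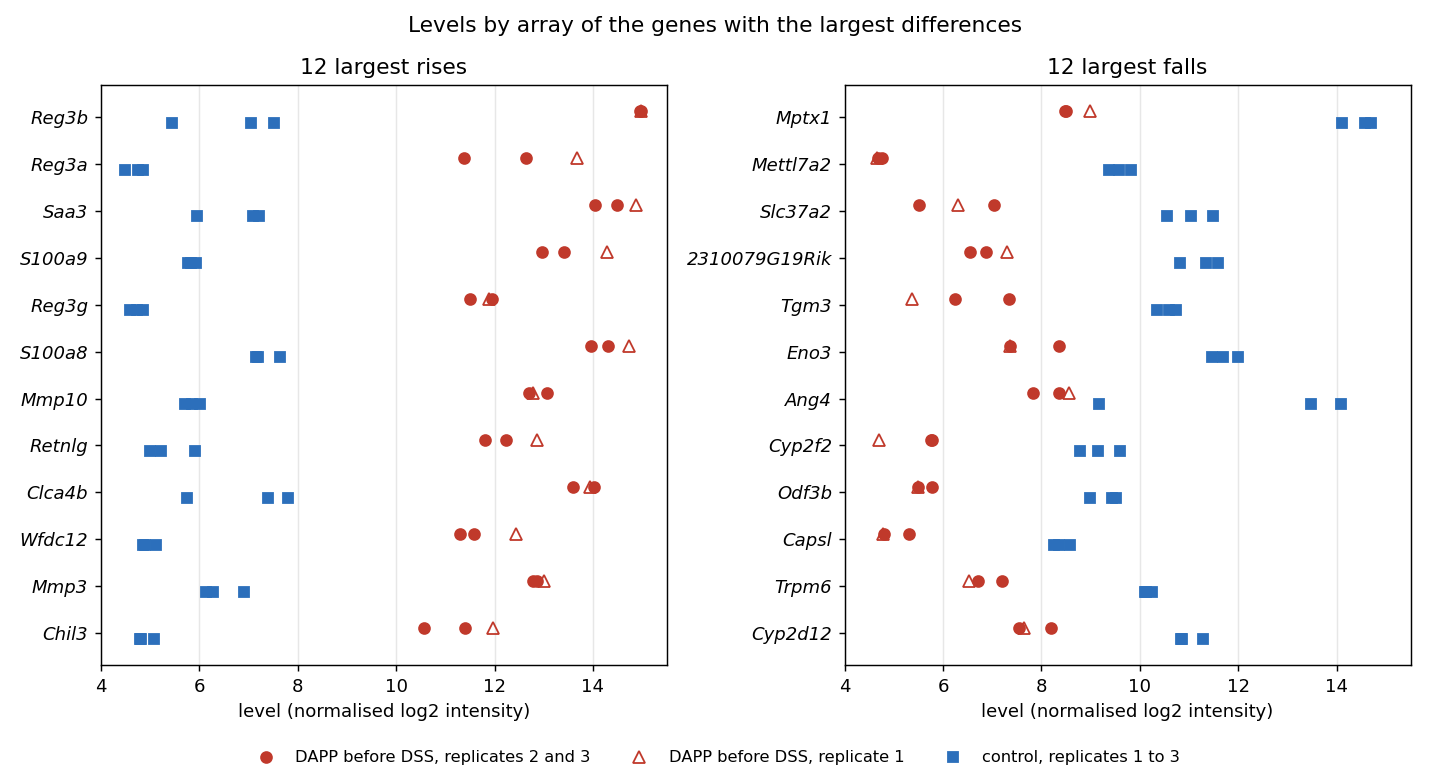
Normalised log2 intensity (horizontal axis) on each array for the 12 genes with the largest rise (left) and the 12 with the largest fall (right), with red circles for DAPP before DSS replicates 2 and 3, open triangles for its replicate 1 and blue squares for the 3 control samples. The groups do not overlap for any of these genes, a condition of the choice; Ang4 has 1 control value, 9.16, close to the DAPP before DSS values.

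Neutrophil genes were among the strongest rises. S100a8 and S100a9 encode the subunits of calprotectin, a metal-binding protein that makes up much of the neutrophil cytosol. S100a9 had levels of 14.28, 13.41 and 12.96 in DAPP before DSS samples, against 5.84, 5.77 and 5.93 in control samples, a difference of 7.70 ± 0.42 (SE, adjusted p = 8.4e-07), or 209-fold. S100a8 had 14.73, 14.30 and 13.97 in DAPP before DSS samples and 7.14, 7.19 and 7.65 in control samples, 129-fold. The groups lie far apart for both genes, and replicate 1 is the highest of the 3 DAPP before DSS samples in each. Retnlg, a resistin-like protein of mouse neutrophils, stood at 12.87, 12.24 and 11.80 in DAPP before DSS samples, against 5.91, 5.21 and 5.0 in control samples (122-fold). Lcn2, or lipocalin-2, which withholds iron from bacteria and is made by neutrophils and by inflamed epithelium, had 12.39, 12.79 and 12.37 in DAPP before DSS samples and 6.14, 6.28 and 5.92 in control samples (84.7-fold). Of 25 listed neutrophil genes 17 passed the detection filter; 15 of these rose and 0 fell, and 14 rose without replicate 1. The median difference of the 17 was 4.22, or 3.60 with genes undetected in control at their bounds, against -0.08 for all genes; it was 2.26 without background correction or on the authors' values, 2.51 with no detection filter and 0.95 over the fewer members with a detection p under 0.01 on all 6 arrays. Only 6 of them were detected on all 6 arrays, and 5 of these rose, with a median of 4.66.

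The acute phase proteins are secreted in inflammation, most of them by the liver, and some also by inflamed mucosa. Saa3, a serum amyloid A made outside the liver in mice, had 14.87, 14.48 and 14.03 in DAPP before DSS samples, against 7.22, 5.95 and 7.10 in control samples, a difference of 7.71 ± 0.41 (SE, adjusted p = 8.4e-07), or 209-fold. Haptoglobin (Hp), which binds free haemoglobin, stood at 12.28, 12.06 and 12.09 in DAPP before DSS samples and 6.82, 6.54 and 5.84 in control samples (53.5-fold). The protease inhibitor Serpina3n had 14.23, 14.07 and 13.89 in DAPP before DSS samples, against 9.40, 9.68 and 9.62 in control samples (22.6-fold). In each of these genes the lowest DAPP before DSS sample exceeded the highest control sample. That held for 756 of the 758 genes that rose and for 14% of all genes tested. It was a condition of the choice of Saa3, so it adds no further evidence. Of 22 listed acute phase genes 17 passed the filter, 11 rose and 0 fell, with or without replicate 1. The members were not alike: among those that rose were ceruloplasmin (Cp, 3.87), Lrg1 (4.69) and Lbp (3.39), which binds bacterial lipopolysaccharide, while Saa1 (-0.68, adjusted p = 0.28) and Saa2 (-0.09, adjusted p = 0.93) did not pass. These 5 genes were chosen after their values were seen. Among the 13 members detected on all 6 arrays, 10 rose, with a median of 3.87.

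The promoters of the neutrophil and acute phase genes among the 12 largest rises, Saa3, S100a9, S100a8 and Retnlg, are shown. Higher values in every DAPP before DSS sample were a condition of that ranking, so no shared control is read from them. Each window runs from 250 bases before to 50 after the RefSeq start site in the mouse build GRCm38.p6: chr7:46715627-46715926 on the minus strand for Saa3, chr3:90695672-90695971 on the minus strand for S100a9, chr3:90668821-90669120 on the plus strand for S100a8 and chr16:48872358-48872657 on the plus strand for Retnlg. Sequences are written 5′ to 3′ along the gene, and capitals mark matches to the C/EBP motif TTGCNNAA, searched on both strands, with a minus-strand match shown as it reads along the gene.
Saa3: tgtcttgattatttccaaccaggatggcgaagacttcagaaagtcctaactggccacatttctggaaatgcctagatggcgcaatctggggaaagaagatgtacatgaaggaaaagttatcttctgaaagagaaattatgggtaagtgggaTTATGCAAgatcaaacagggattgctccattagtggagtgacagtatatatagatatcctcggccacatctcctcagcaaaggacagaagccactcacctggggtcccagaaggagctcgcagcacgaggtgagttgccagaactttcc
S100a9: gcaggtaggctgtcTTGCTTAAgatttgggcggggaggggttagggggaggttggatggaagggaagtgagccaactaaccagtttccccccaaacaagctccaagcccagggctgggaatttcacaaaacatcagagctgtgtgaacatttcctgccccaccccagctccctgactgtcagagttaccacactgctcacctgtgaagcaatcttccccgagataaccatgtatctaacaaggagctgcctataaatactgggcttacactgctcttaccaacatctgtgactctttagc
S100a8: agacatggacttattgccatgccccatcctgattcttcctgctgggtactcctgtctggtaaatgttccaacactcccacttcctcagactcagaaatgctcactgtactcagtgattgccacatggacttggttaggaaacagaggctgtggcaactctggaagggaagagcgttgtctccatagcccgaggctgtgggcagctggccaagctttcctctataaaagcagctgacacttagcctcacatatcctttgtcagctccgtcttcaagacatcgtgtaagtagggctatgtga
Retnlg: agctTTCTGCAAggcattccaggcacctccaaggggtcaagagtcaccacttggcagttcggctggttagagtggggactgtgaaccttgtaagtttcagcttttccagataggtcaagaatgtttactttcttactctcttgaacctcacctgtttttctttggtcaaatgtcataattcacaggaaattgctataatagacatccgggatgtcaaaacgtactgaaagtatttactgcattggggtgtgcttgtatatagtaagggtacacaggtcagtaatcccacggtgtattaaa
The C/EBP letters occur once each in the windows of Saa3 (first base at -99 from the start site, minus strand), S100a9 (-236, plus strand) and Retnlg (-246, minus strand), and are not in the window of S100a8. C/EBP factors are bZIP transcription factors of the myeloid lineage and of the acute phase response. The NF-kappaB letters searched, GGGA and CC with any 4 bases between them, on both strands, are in none of these 4 windows. Of 32851 RefSeq promoters of the same length, 10.7972% hold the C/EBP letters and 20.73% the NF-kappaB letters. These matches describe the sequence only, and the arrays hold no measurement of binding.

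Most of the macrophage and monocyte genes that passed the filter rose. Chil3, a chitinase-like lectin of mouse macrophages, had 11.96, 11.40 and 10.56 in DAPP before DSS samples, against 4.81, 4.79 and 5.07 in control samples, where it was not detected on any array, so that it was at least 55.0-fold higher. The antibody receptor Fcgr2b stood at 10.91, 10.74 and 10.56 in DAPP before DSS samples and 7.61, 7.59 and 7.58 in control samples (8.81-fold). Another antibody receptor, Fcgr3, had 10.83, 10.41 and 10.35 in DAPP before DSS samples and 7.38, 7.87 and 7.63 in control samples (7.48-fold). For Cd14, the co-receptor for bacterial lipopolysaccharide, the values were tight: 11.51, 11.59 and 11.36 in DAPP before DSS samples, against 9.29, 9.41 and 9.65 in control samples (4.10-fold). Of 25 listed genes 21 passed the filter, 19 rose (7.03% of all genes tested did) and 0 fell. Without replicate 1, 18 rose, and the median with it was 2.26. Among the 16 detected on all 6 arrays, 14 rose. The mean of the 21 genes was 10.7, 9.95 and 9.87 in DAPP before DSS samples and 7.64, 7.77 and 7.60 in control samples, with replicate 1 the highest.

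Most of the cytokines and chemokines that passed the filter rose; they are the signals that call and activate leukocytes. Il1b, the interleukin released by activated myeloid cells, had 10.33, 11.47 and 11.90 in DAPP before DSS samples, against 5.18, 5.22 and 5.63 in control samples, a difference of 5.89 ± 0.38 (SE, adjusted p = 2.6e-06), or 59.4-fold. Il11, an interleukin of the interleukin-6 family made by stromal cells, stood at 9.98, 11.20 and 11.43 in DAPP before DSS samples and 5.07, 4.81 and 5.40 in control samples, where it was not detected, and was at least 40.6-fold higher. In both genes replicate 1 was the lowest of the 3 DAPP before DSS samples. Il6 itself had 8.95, 8.19 and 7.17 in DAPP before DSS samples, against 4.46, 4.80 and 4.64 in control samples (at least 5.97-fold), and replicate 3 was the lowest. Tnf stood at 6.97, 6.77 and 7.97 in DAPP before DSS samples and 5.19, 4.94 and 6.01 in control samples, a smaller difference of 1.86 ± 0.38 (SE, adjusted p = 0.0073). Osm, or oncostatin M, had 10.22, 8.55 and 8.69 in DAPP before DSS samples and 4.98, 5.18 and 4.86 in control samples (at least 12.4-fold). The kept probes of Osm disagree in sign, and when the arrays were normalised again without replicate 1 another probe was chosen, with a difference of -0.20. Of 20 listed cytokines 12 passed the filter and 9 rose (10 without replicate 1), but 6 of the 12 were undetected in control, and of the 4 detected on all 6 arrays 1 rose; when the arrays were normalised again without replicate 1, fewer cytokines passed the filter and 4 rose. The median over the 12 was 2.64, or 1.91 at the bounds; it was 1.11 without background correction or on the authors' values, 0.76 with no detection filter and 0.22 over the fewer members that passed the stricter one.

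Among chemokines, the neutrophil attractant Cxcl1 had 13.36, 12.95 and 12.39 in DAPP before DSS samples, against 7.37, 6.09 and 6.10 in control samples, a difference of 6.38 ± 0.54 (SE, adjusted p = 2.6e-05), or 83.0-fold. Cxcl2, which acts on the same receptor, had 12.26, 11.16 and 10.42 in DAPP before DSS samples and 4.78, 5.54 and 4.68 in control samples, where it was not detected, and was at least 54.0-fold higher. The monocyte attractant Ccl8 stood at 13.57, 11.91 and 12.55 in DAPP before DSS samples and 7.76, 7.87 and 6.27 in control samples (41.6-fold). For Ccl3, made by activated macrophages, the levels were 8.19, 8.38 and 9.0 in DAPP before DSS samples, against 4.85, 4.67 and 4.68 in control samples (at least 7.99-fold). Of 26 listed chemokines 23 passed the filter, 16 rose (7.03% of all genes tested did) and 0 fell, with a median of 2.03. Without replicate 1, 14 rose and 1 fell. Of the 16 detected on all 6 arrays, 11 rose.

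Genes that respond to such signals within hours rose in part. Socs3, the feedback inhibitor of interleukin-6 signalling, had 12.36, 11.90 and 11.87 in DAPP before DSS samples, against 7.46, 7.50 and 7.31 in control samples, a difference of 4.62 ± 0.33 (SE, adjusted p = 6.5e-06), or 24.6-fold. The survival factor Ier3 stood at 12.79, 12.29 and 11.60 in DAPP before DSS samples and 9.17, 9.50 and 9.64 in control samples (6.91-fold). Nfkbia, the inhibitor that NF-kappaB induces against itself, had 11.03, 11.06 and 10.43 in DAPP before DSS samples and 9.62, 9.32 and 9.69 in control samples (2.46-fold). Nfkbiz, a nuclear cofactor of NF-kappaB, had a difference of 1.68 ± 0.29 (SE, adjusted p = 0.0028). Of 30 listed immediate early genes 23 passed the filter, 9 rose and 1 fell, and without replicate 1 10 rose and 1 fell. The median was 0.62, against -0.08 for all genes, and 13 members did not pass. The 1 that fell was Klf4, at -0.82 ± 0.23 (SE, adjusted p = 0.033), a transcription factor of differentiated epithelium named here after its value was seen. The count of genes that fell was 0 without DAPP before DSS replicate 3 and without any 1 of the 3 control replicates, 2 without DAPP before DSS replicate 2, and 0 at a common median.

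Interferon-responsive genes were higher in DAPP before DSS samples for some members only. Cxcl9, a T cell attractant induced by interferon gamma, had 10.63, 9.87 and 11.76 in DAPP before DSS samples, against 6.15, 5.73 and 5.60 in control samples, a difference of 4.93 ± 0.80 (SE, adjusted p = 0.0021), or 30.4-fold. Ido1, which degrades tryptophan, stood at 11.37, 12.19 and 12.51 in DAPP before DSS samples and 6.86, 7.44 and 7.12 in control samples (29.5-fold). The immunity-related GTPase Ifi47 had 9.87, 9.54 and 10.46 in DAPP before DSS samples and 7.42, 7.33 and 6.74 in control samples (6.95-fold). Irf8, a transcription factor of monocytes and dendritic cells, had a difference of 1.27 ± 0.23 (SE, adjusted p = 0.0040). Of 30 listed genes 25 passed the filter, 9 rose and 0 fell, with a median of 1.21; 12 rose without replicate 1 of DAPP before DSS and 5 without control replicate 1. The list mean was 9.06, 9.51 and 10.3 in DAPP before DSS samples, against 8.22, 8.38 and 8.16 in control samples, and replicate 1 was the lowest of its group.

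Lymphocyte genes gave a mixed result. Ctla4, an inhibitory receptor of T cells, had 9.92, 8.02 and 7.29 in DAPP before DSS samples, against 4.68, 4.62 and 4.82 in control samples, where it was not detected, and was at least 7.38-fold higher. Cd3d, part of the T cell receptor complex, stood at 10.54, 8.17 and 8.41 in DAPP before DSS samples and 5.38, 6.31 and 6.92 in control samples, a difference of 2.84 ± 0.59 (SE, adjusted p = 0.0085). Without replicate 1, the highest sample for both genes, the difference of Cd3d was 2.09, and both genes passed. Cd3e, another chain of the complex, had a difference of 2.38 ± 0.37 (SE, adjusted p = 0.0015), and the co-stimulator Icos 2.20 ± 0.28 with an adjusted p of 4.4e-04. Of 22 listed T and natural killer cell genes 12 passed the filter and 8 rose, 5 without replicate 1, 5 without control replicate 1 and 4 without control replicate 2. Only 4 members were detected on all 6 arrays, and 0 of these rose, with a median of -0.28, so the rises all belong to genes undetected on at least 1 array. Of 19 listed B and plasma cell genes 8 passed the filter and 0 changed: Cd79b, a chain of the B cell receptor, had 11.25, 8.11 and 9.06 in DAPP before DSS samples and 8.41, 8.21 and 9.26 in control samples, with replicate 1 alone high, and Fcer2a had 6.02, 4.69 and 5.82, against 6.14, 4.94 and 6.54. MHC class II genes, which present antigen to T cells, had a median of 0.73 over 10 tested of 11, and 1 rose, H2-DMb1, at 1.37 ± 0.40 (SE, adjusted p = 0.043). H2-DMb1 missed the threshold without replicate 1 (0.069) or 3 (0.11) of DAPP before DSS and without control replicate 1 (0.13), 2 (0.10) or 3 (0.10), as adjusted p.

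Secreted defence proteins of the epithelium were among the largest rises outside the pancreatic genes. Reg3b, a lectin that binds bacterial walls, had 14.97, 14.96 and 14.97 in DAPP before DSS samples, against 7.05, 5.44 and 7.53 in control samples, a difference of 8.29 ± 0.52 (SE, adjusted p = 2.4e-06). Its DAPP before DSS values lie close to the highest level of any gene on any array, 15.09, and they hardly vary. Reg3g, its close relative that kills Gram-positive bacteria, stood at 11.88, 11.50 and 11.94 in DAPP before DSS samples and 4.60, 4.74 and 4.85 in control samples, where it was not detected, and was at least 76.0-fold higher. Reg3a had 13.68, 11.37 and 12.63 in DAPP before DSS samples, 4.99, 13.47 and 11.88 in DSS samples and 4.76, 4.86 and 4.50 in control samples, where it was not detected, and was at least 131-fold higher in DAPP before DSS. It was dim on DSS replicate 1, the array of that group where the pancreatic enzymes were also dim, and Reg3b was at 13.12 there. Reg3a had an adjusted p of 0.035, and one of 0.077 and 0.067 without replicates 1 and 3 of DAPP before DSS and of 0.092, 0.090 and 0.098 without control replicates 1, 2 and 3; with the pancreatic enzyme mean as a covariate the fitted difference was 1.37 instead of 7.85 (adjusted p = 0.36), and the adjusted p was 0.10 with array weights, 0.076 with no detection filter and 0.052 without background correction or on the authors' values. Wfdc12, of the whey acidic protein family, had 12.44, 11.30 and 11.57 in DAPP before DSS samples and 5.12, 4.85 and 4.91 in control samples (at least 75.9-fold). Clca4b, of a family of secreted and surface proteins of epithelium, had 13.93, 14.02 and 13.60 in DAPP before DSS samples and 7.39, 5.75 and 7.79 in control samples (117-fold). Of 25 listed defence genes 23 passed the filter, 12 rose and 1 fell, 13 and 1 without replicate 1, with a median of 2.79; among the 16 detected on all 6 arrays 7 rose, with a median of 1.10.

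The member that fell was Ang4, a bactericidal ribonuclease of Paneth and goblet cells in mice, at 8.55, 7.83 and 8.36 in DAPP before DSS samples, against 14.09, 13.49 and 9.16 in control samples. Control replicate 3 lies near the DAPP before DSS values, and the difference of -4.0 ± 1.0 (SE, adjusted p = 0.021) missed the threshold without control replicate 1 (0.088) or 2 (0.091) and without DAPP before DSS replicate 2 (0.051), as adjusted p. Mptx1, a mucosal pentraxin of mouse intestinal epithelium, had the largest fitted fall, with 8.99, 8.50 and 8.48 in DAPP before DSS samples, against 14.70, 14.57 and 14.12 in control samples, a difference of -5.80 ± 0.85 (SE, adjusted p = 0.0012), or 55.9-fold lower. In contrast to Ang4, all 3 control samples of Mptx1 were bright.

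Many enzymes that break down and remodel the matrix rose, together with part of the collagens. Mmp10, or stromelysin-2, had 12.77, 13.06 and 12.69 in DAPP before DSS samples, against 5.85, 5.72 and 6.02 in control samples, a difference of 6.98 ± 0.32 (SE, adjusted p = 7.3e-07), or 126-fold. Mmp3, or stromelysin-1, stood at 13.01, 12.86 and 12.79 in DAPP before DSS samples and 6.92, 6.13 and 6.29 in control samples (86.9-fold). Timp1, an inhibitor of such enzymes, had 11.99, 11.71 and 12.18 in DAPP before DSS samples and 6.63, 7.72 and 6.85 in control samples (29.8-fold). For each of these the 3 DAPP before DSS samples differ little among themselves. Of 27 listed genes 21 passed the filter, 14 rose (7.03% of all genes tested did) and 0 fell, with a median of 2.65. Without replicate 1, 17 rose, and 11 of the 16 detected on all 6 arrays rose in the full comparison. Among collagens and basement membrane genes 24 of 29 passed the filter, 13 rose and 0 fell, and without replicate 1 15 rose and 1 fell; the median was 1.19. Col18a1, whose fragment is endostatin, had 12.02, 12.87 and 12.70 in DAPP before DSS samples and 10.16, 10.19 and 10.50 in control samples (4.75-fold). Col4a1, of the basement membrane, had a difference of 1.90 ± 0.25 (SE, adjusted p = 6.0e-04), and Col3a1, a fibrillar collagen, 2.0 ± 0.23 with an adjusted p of 2.0e-04. The laminin chain Lama1 stood at 6.92, 7.23 and 7.97 in DAPP before DSS samples and 5.12, 4.83 and 5.17 in control samples (at least 3.59-fold).

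Some fibroblast and endothelial genes rose. Grem1, a secreted inhibitor of bone morphogenetic proteins made by colon fibroblasts and muscle, had 10.32, 11.82 and 11.33 in DAPP before DSS samples, against 8.76, 8.89 and 8.78 in control samples, a difference of 2.35 ± 0.38 (SE, adjusted p = 0.0021). Igfbp5, which binds insulin-like growth factors, stood at 13.78, 14.56 and 14.53 in DAPP before DSS samples and 12.07, 12.32 and 12.29 in control samples (4.19-fold). Of 23 listed fibroblast genes 20 passed the filter and 8 rose, 11 without DAPP before DSS replicate 1 and 4 without control replicate 1, with a median of 0.72. Among 18 tested of 22 listed endothelial genes 6 rose, 9 without replicate 1, and the 6 include adhesion molecules through which leukocytes leave the blood. Vcam1 had 10.89, 10.89 and 10.73 in DAPP before DSS samples and 8.03, 8.04 and 8.57 in control samples (6.16-fold), and Icam1 had 9.36, 9.75 and 10.15 in DAPP before DSS samples and 7.51, 7.40 and 7.73 in control samples (4.63-fold). Selp, or P-selectin, had 7.32, 10.52 and 10.06 in DAPP before DSS samples and 6.23, 6.10 and 5.84 in control samples; replicate 1 was well below its group mates, and the difference was 3.24 ± 0.63 (SE, adjusted p = 0.0061) with it and 4.24 (adjusted p = 1.6e-05) without it. Madcam1, the gut-homing address for lymphocytes, was not detected on any control array and was at least 2.46-fold higher in DAPP before DSS (adjusted p = 0.0051).

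**Figure D3:**
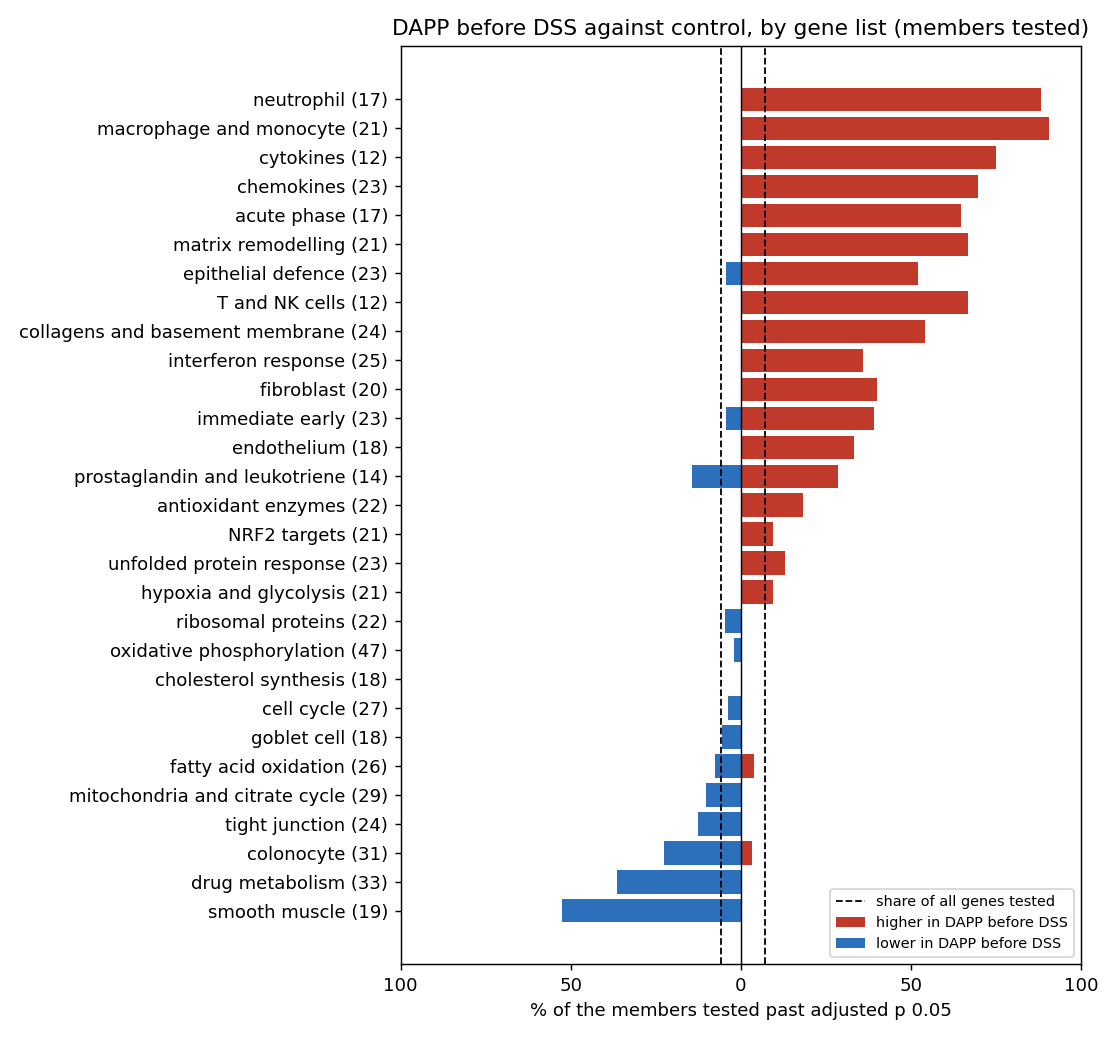
Share of the tested members of each gene list (numbers tested in brackets) that passed an adjusted p of 0.05, with those higher in DAPP before DSS samples drawn to the right in red and those lower to the left in blue, and dashed lines at the shares among all genes tested, 7.03% and 5.73%. Neutrophil (15 of 17) and macrophage (19 of 21) genes lie far to the right, drug metabolism (12 of 33) and smooth muscle (10 of 19) genes to the left; members undetected in control count on the right only through the DAPP before DSS samples.

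Some transporters of the absorptive colonocyte fell. Slc5a8, which takes up short chain fatty acids with sodium, had 10.07, 11.90 and 11.15 in DAPP before DSS samples, against 13.01, 13.01 and 13.16 in control samples, a difference of -2.03 ± 0.36 (SE, adjusted p = 0.0036), or 4.07-fold lower. Cftr, the chloride channel of crypt cells, stood at 9.20, 9.73 and 9.38 in DAPP before DSS samples and 11.42, 11.03 and 11.18 in control samples (3.41-fold lower). The colonic proton pump subunit Atp12a had 9.58, 10.61 and 10.85 in DAPP before DSS samples and 12.73, 12.64 and 13.48 in control samples (6.07-fold lower), but did not pass with the pancreatic enzymes as a covariate (adjusted p = 0.095). Trpm6, a magnesium channel, had 6.54, 7.19 and 6.71 in DAPP before DSS samples and 10.11, 10.13 and 10.24 in control samples, a difference of -3.35 ± 0.29 (SE, adjusted p = 2.9e-05). No DAPP before DSS sample reached the lowest control sample in any of these 4 genes, and replicate 1 was the lowest of its group in each. Such separation held for 616 of the 618 genes that fell and for 16.3% of all genes tested. It was a condition of the choice of Trpm6, so it adds no further evidence. Car1, a carbonic anhydrase of surface colonocytes, had a smaller difference of -0.96 ± 0.23 (SE, adjusted p = 0.017), which missed the threshold without control replicate 1 (0.060) or 3 (0.076) and at a common median (0.25), as adjusted p. Of 37 listed colonocyte genes 31 passed the filter, 7 fell and 1 rose, the hormone uroguanylin (Guca2b, 0.71), against 6 and 2 without replicate 1. None rose without DAPP before DSS replicate 2 or 3 or without control replicate 1 or 3. The median was -0.79 with replicate 1 and -0.39 without it. The count that fell was 14 without DAPP before DSS replicate 2, 3, 4 and 3 without control replicates 1, 2 and 3, and 3 at a common median.

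Other large falls were found outside the lists described so far. Slc37a2, a sugar-phosphate exchanger, had 6.31, 5.51 and 7.04 in DAPP before DSS samples, against 10.54, 11.04 and 11.48 in control samples, a difference of -4.74 ± 0.56 (SE, adjusted p = 2.6e-04), or 26.6-fold lower. Mettl7a2, a methyltransferase-like protein, stood at 4.66, 4.69 and 4.75 in DAPP before DSS samples, where it was not detected, against 9.37, 9.57 and 9.83 in control samples, and was at least 17.7-fold lower. Tgm3, a transglutaminase that cross-links proteins, had 5.36, 6.25 and 7.34 in DAPP before DSS samples and 10.58, 10.36 and 10.74 in control samples (18.9-fold lower). These are wide gaps, and the spread within DAPP before DSS samples is larger for Tgm3 and Slc37a2 than for Mettl7a2. Odf3b had 5.50, 5.48 and 5.77 in DAPP before DSS samples and 8.99, 9.44 and 9.51 in control samples (13.3-fold lower), and Capsl had 4.77, 4.80 and 5.31 in DAPP before DSS samples and 8.26, 8.59 and 8.35 in control samples (10.9-fold lower). The gene 2310079G19Rik had a difference of -4.34 ± 0.39 (SE, adjusted p = 4.0e-05), and Eno3, the muscle form of the glycolytic enzyme enolase, -4.03 ± 0.60 with an adjusted p of 0.0013. Of 18 listed skeletal muscle genes 7 passed the filter, 2 fell and 0 rose, and 1 fell without control replicate 1 or 3. The list mean was 6.76, 6.38 and 6.62 in DAPP before DSS samples, against 7.42, 7.22 and 7.43 in control samples. The part of tissue content was not tested.

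Of the goblet cell genes 1 fell, some tight junction genes fell, and most calls among stem cell genes were lost when 1 or another array was left out. Muc2, the main mucin of the colon, had 12.87, 14.89 and 14.85 in DAPP before DSS samples, against 14.78, 14.80 and 14.77 in control samples; replicate 1 alone was low, and the difference was -0.58 ± 0.49 (SE, adjusted p = 0.48) with it and 0.09 without it. Clca1, a protein of goblet cell mucus, stood at 12.10, 13.53 and 13.33 in DAPP before DSS samples and 15.01, 14.69 and 14.38 in control samples, and its difference of -1.71 ± 0.43 (SE, adjusted p = 0.022) missed the threshold without replicate 1 (0.050), without control replicate 1 (0.086) or 2 (0.066) and at a common median (0.083), as adjusted p. Of 18 tested of 21 goblet genes 1 fell, Clca1, a share near that of all genes, and the median was -0.27, 0.09 without replicate 1 and 0.03 at a common median. Ocln, or occludin, a membrane protein of the tight junction, had 6.52, 7.84 and 7.62 in DAPP before DSS samples and 8.78, 9.10 and 8.89 in control samples, a difference of -1.59 ± 0.31 (SE, adjusted p = 0.0059), and -1.19 (adjusted p = 0.0047) without replicate 1. In contrast, the junction scaffold Tjp1 had 8.01, 8.41 and 8.14 in DAPP before DSS samples and 8.78, 8.17 and 8.29 in control samples (adjusted p = 0.54). Cldn2, the claudin that forms a pore for cations, had 9.57, 10.57 and 10.96 in DAPP before DSS samples and 10.50, 10.33 and 10.68 in control samples, with a difference of -0.14 (adjusted p = 0.86) that was 0.26 without replicate 1. Of 24 tested of 29 junction genes 3 fell, Ocln, Cldn23 and Marveld3, 2 without DAPP before DSS replicate 1, and 1 without control replicate 1, without control replicate 2 or at a common median; the share of the full comparison is above the 5.73% of all genes. Of 11 tested of 23 stem cell and Wnt target genes 4 fell, Axin2, Hopx, Tnfrsf19 and Ascl2, and 1 rose, Cd44. Among them Axin2, a target and brake of Wnt signalling, had 6.70, 6.27 and 7.51 in DAPP before DSS samples and 8.61, 8.95 and 8.98 in control samples, and its adjusted p of 0.043 was 0.079 and 0.10 without replicates 1 and 2 of DAPP before DSS and 0.088, 0.12 and 0.12 without control replicates 1, 2 and 3. The number of stem cell genes that fell was 1 without DAPP before DSS replicate 1, 2 without its replicate 2, 1 without control replicate 1 or 2, and 0 without control replicate 3. Cd44 did not pass without DAPP before DSS replicate 3 (0.054) or without control replicate 1 (0.074) or 3 (0.070), as adjusted p.

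Enzymes of drug metabolism, which the colon epithelium uses against dietary and bacterial compounds, fell in part, and none rose. Cyp2f2, a cytochrome P450, had 4.69, 5.77 and 5.76 in DAPP before DSS samples, against 9.14, 8.78 and 9.59 in control samples, a difference of -3.76 ± 0.57 (SE, adjusted p = 0.0013), or 13.6-fold lower. Cyp2d12, another cytochrome P450, stood at 7.64, 8.19 and 7.55 in DAPP before DSS samples and 10.83, 10.86 and 11.29 in control samples (9.19-fold lower). Ephx1, the microsomal epoxide hydrolase, had 8.27, 8.23 and 8.39 in DAPP before DSS samples and 9.56, 9.91 and 9.61 in control samples (2.64-fold lower). Ugt2b34, which joins glucuronic acid to its substrates, had a difference of -1.46 ± 0.26 (SE, adjusted p = 0.0035). The 3 DAPP before DSS samples of Ephx1 are nearly equal, so its fall does not rest on replicate 1. Of 49 listed genes 33 passed the filter and 12 fell, 12 also without replicate 1 of DAPP before DSS, with medians of -0.99 and -0.79; among the 26 detected on all 6 arrays 9 fell. The number that fell was 7, 7 and 6 without control replicates 1, 2 and 3, and 6 at a common median.

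Many contractile genes of smooth muscle fell, and the differences of the tested members ran from -2.62 to 0.32. Tagln, or transgelin, had 9.98, 9.62 and 9.66 in DAPP before DSS samples, against 10.92, 11.11 and 10.75 in control samples, a difference of -1.17 ± 0.22 (SE, adjusted p = 0.0048), or 2.25-fold lower. Mylk, the myosin light chain kinase that triggers contraction, stood at 12.98, 13.27 and 13.18 in DAPP before DSS samples and 13.98, 14.12 and 14.25 in control samples, a difference of -0.97 ± 0.21 (SE, adjusted p = 0.010) that did not pass at a common median (adjusted p = 0.15). Smtn, or smoothelin, had 10.01, 10.63 and 10.67 in DAPP before DSS samples and 11.79, 11.71 and 11.57 in control samples (2.39-fold lower). Of 21 listed genes 19 passed the filter and 10 fell, 7 without replicate 1 of DAPP before DSS, with a median of -0.91. Without control replicates 1, 2 and 3 the count was 3, 3 and 4, and 2 at a common median or with the pancreatic enzymes as a covariate. The list mean was 9.73, 10.7 and 10.6 in DAPP before DSS samples, against 11.3, 11.3 and 11.1 in control samples, so the groups do not overlap. The part of the share of wall or mucosa in a sample was not tested.

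Some genes of mitochondrial regulation and of the citrate cycle fell. Ppargc1a, or PGC-1 alpha, the coactivator that drives mitochondrial biogenesis, had 5.18, 8.69 and 7.41 in DAPP before DSS samples, against 10.39, 10.02 and 10.33 in control samples, a difference of -3.15 ± 0.67 (SE, adjusted p = 0.0092), or 8.90-fold lower. Replicate 1 was the lowest, and without it the difference was -2.20 (adjusted p = 0.0062). In the fit of the 6 arrays alone the adjusted p was 0.051. Tfam, the mitochondrial transcription factor downstream of it, had 9.70, 9.14 and 9.06 in DAPP before DSS samples and 9.57, 9.62 and 9.25 in control samples (adjusted p = 0.67). Idh3a, a citrate cycle enzyme, stood at 8.22, 8.39 and 9.17 in DAPP before DSS samples and 10.12, 9.94 and 10.32 in control samples, a difference of -1.54 ± 0.26 (SE, adjusted p = 0.0027). Of 29 tested of 35 genes of mitochondrial regulation and the citrate cycle 3 fell, Ppargc1a, Idh3a and the pyruvate dehydrogenase subunit Dlat (-1.0), 5 without replicate 1, 1 with the pancreatic enzymes as a covariate, and 0 rose, with a median of -0.37; the share that fell is above the 5.73% of all genes. Of 47 tested of 55 respiratory chain and ATP synthase genes 1 fell, Cox7a1, a muscle form of a cytochrome oxidase subunit, at -1.64 ± 0.28 (SE, adjusted p = 0.0026), a share below that of all genes (2 fell without any 1 of the 3 DAPP before DSS replicates), and the median was -0.27 on the quantile scale and 0.24 at a common median.

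Antioxidant genes did not move together. Hmox1, haem oxygenase 1, had 8.83, 8.36 and 8.19 in DAPP before DSS samples, against 5.58, 4.94 and 4.95 in control samples, a difference of 3.31 ± 0.40 (SE, adjusted p = 2.8e-04), or 9.91-fold. Nqo1, a quinone reductase and textbook target of NRF2, was lower in level without passing the test, at 5.31, 7.53 and 7.54 in DAPP before DSS samples and 8.22, 8.32 and 7.96 in control samples, with a difference of -1.37 ± 0.46 (SE, adjusted p = 0.076). Replicate 1 was far below its group mates for Nqo1, and without it the difference was smaller, -0.63, and past the threshold (adjusted p = 0.033). It was also past it without DAPP before DSS replicate 2 (0.035) or 3 (0.037). Nfe2l2, which encodes NRF2 itself, had 6.79, 9.63 and 8.83 in DAPP before DSS samples and 8.79, 8.71 and 9.01 in control samples, and the difference of -0.42 (adjusted p = 0.65) was 0.39 without replicate 1. Of 21 tested of 24 NRF2 pathway genes 2 rose, a share near the 7.03% of all genes tested. They were Hmox1 and the cystine transporter Slc7a11, at 2.48 ± 0.65 (SE, adjusted p = 0.027). The median was 0.08, and at a common median 5 rose. Among the 16 members detected on all 6 arrays 0 rose. Slc7a11 missed the threshold without replicate 1 (0.061) and without control replicate 1 (0.10) or 2 (0.081), as adjusted p. The metallothionein Mt2, which binds zinc and copper, had 11.22, 10.15 and 9.03 in DAPP before DSS samples and 6.37, 6.37 and 6.41 in control samples (13.5-fold), and Mt1 had a difference of 1.25 ± 0.19 (SE, adjusted p = 0.0016). Gpx3, a secreted glutathione peroxidase, stood at 13.21, 12.30 and 11.86 in DAPP before DSS samples and 10.02, 10.19 and 9.79 in control samples (5.49-fold). Sod2, the mitochondrial superoxide dismutase, had 13.73, 12.96 and 13.28 in DAPP before DSS samples and 12.46, 12.60 and 12.59 in control samples and just missed the threshold, at 0.77 ± 0.23 (SE, adjusted p = 0.051); without DAPP before DSS replicate 2 its adjusted p was 0.025. Catalase (Cat) had a difference of -0.57 ± 0.32 (SE, adjusted p = 0.27) and Gpx1 -0.36 ± 0.36 with an adjusted p of 0.56; replicate 1 was the lowest sample of its group in both, and without it they were -0.16 and 0.18. In all, 4 of 22 tested of 25 antioxidant genes rose, Mt2, Gpx3, Gpx7 and Mt1, and 0 fell, with a median of 0.03.

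Of 22 listed genes of prostaglandin and leukotriene metabolism and signalling 14 passed the filter. Of these 4 rose, Alox5ap, Ltb4r1, Ptges and Tbxas1, and 2 fell, Hpgds and Hpgd. In the fit of the 6 arrays alone, or with the pancreatic enzymes as a covariate, 1 fell. Ptges, which makes prostaglandin E, had 8.54, 8.41 and 8.29 in DAPP before DSS samples, against 6.26, 6.47 and 6.16 in control samples, a difference of 2.11 ± 0.28 (SE, adjusted p = 6.1e-04). Alox5ap, needed for leukotriene synthesis in leukocytes, stood at 12.14, 10.74 and 11.32 in DAPP before DSS samples and 8.87, 9.30 and 8.88 in control samples (5.21-fold). The leukotriene receptor Ltb4r1 had a difference of 2.36 ± 0.34 (SE, adjusted p = 9.8e-04), and Hpgds, a synthase of prostaglandin D, fell by 1.64 ± 0.25 (adjusted p = 0.0015). Nos2 and Ptgs2, the inducible nitric oxide synthase and cyclooxygenase, did not pass the detection filter and were not tested. The brighter probe of Nos2 was detected on 2 of 3 DAPP before DSS arrays and 0 of 3 control arrays, with levels of 4.74, 6.89 and 7.58 in DAPP before DSS samples and 4.88, 4.75 and 4.63 in control samples. For Ptgs2 the brighter probe was detected on 1 of 3 DAPP before DSS arrays and 0 of 3 control arrays, with 5.39, 5.74 and 4.85 in DAPP before DSS samples and 4.66, 4.59 and 4.54 in control samples.

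The same DAPP before DSS samples were then set directly against the DSS samples, which asks whether DAPP given before DSS left the colon different from DSS alone. Of 10787 genes 0 passed an adjusted p of 0.05 (0%), and 466 had an unadjusted p under 0.05 (4.32%); the lowest adjusted p was 0.85. The intervals show what sizes the data leave room for: S100a9 differed by 0.60 (95% interval -0.31 to 1.52), Il1b by -0.47 (95% interval -1.29 to 0.35), Reg3g by 1.21 (95% interval -0.32 to 2.74) and Ppargc1a by -1.39 (95% interval -2.84 to 0.07), each as DAPP before DSS minus DSS. All 3 DAPP before DSS arrays enter these intervals, and the value of Ppargc1a leans on replicate 1, its lowest sample by far. Of the genes with the lowest p, Trpm6 had 6.54, 7.19 and 6.71 in DAPP before DSS samples and 8.41, 7.46 and 8.64 in DSS samples, a difference of -1.36 (95% interval -2.0 to -0.72), and Hoxa11 had 7.10, 6.06 and 6.11 and, in DSS samples, 4.70, 4.89 and 5.08, where it was not detected on any array. The other genes with the lowest p were Fxr2, with a difference of 0.80, Armc9, not detected on any DAPP before DSS array, and Tspyl2, not detected on any DSS array, and none of these 5 passed the adjusted threshold. For Trpm6 the highest DAPP before DSS value lies below the lowest DSS value, and for Hoxa11 the lowest lies above the highest. Because these 5 genes were picked for their low p in this same comparison, such separation adds no further evidence. The comparisons of DSS and of DAPP during DSS with control share the 3 control samples with the main comparison, so their values are given only side by side. Against control, DSS alone had 469 genes higher (4.35%) and 364 lower (3.37%), and DAPP during DSS had 529 higher (4.9%) and 401 lower (3.72%). Genes and probes were chosen on the DAPP before DSS and control arrays alone. Genes detected only in DSS or DAPP during DSS samples are therefore missing, and the counts are not like for like with the main comparison. S100a9 differed from control by 7.70 in DAPP before DSS, 7.09 in DAPP during DSS and 7.10 in DSS samples. For Mptx1 these differences were -5.80 in DAPP before DSS, -6.07 in DAPP during DSS and -4.06 in DSS samples, and for Slc5a8 -2.03, -1.19 and -1.14 in the same order. These genes were named for their change in the main comparison or fixed by name. Ppargc1a differed from control by -3.15 in DAPP before DSS, -2.21 in DAPP during DSS and -1.77 in DSS samples. Slc5a8 and Ppargc1a were both lowest on replicate 1 of DAPP before DSS, which these values include, so the order of the groups is not read from them. Between DAPP before and DAPP during DSS, 0 of 10787 genes passed (0%), and timing and the number in the array names, 200 and 400, differ together there.

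**Figure D4:**
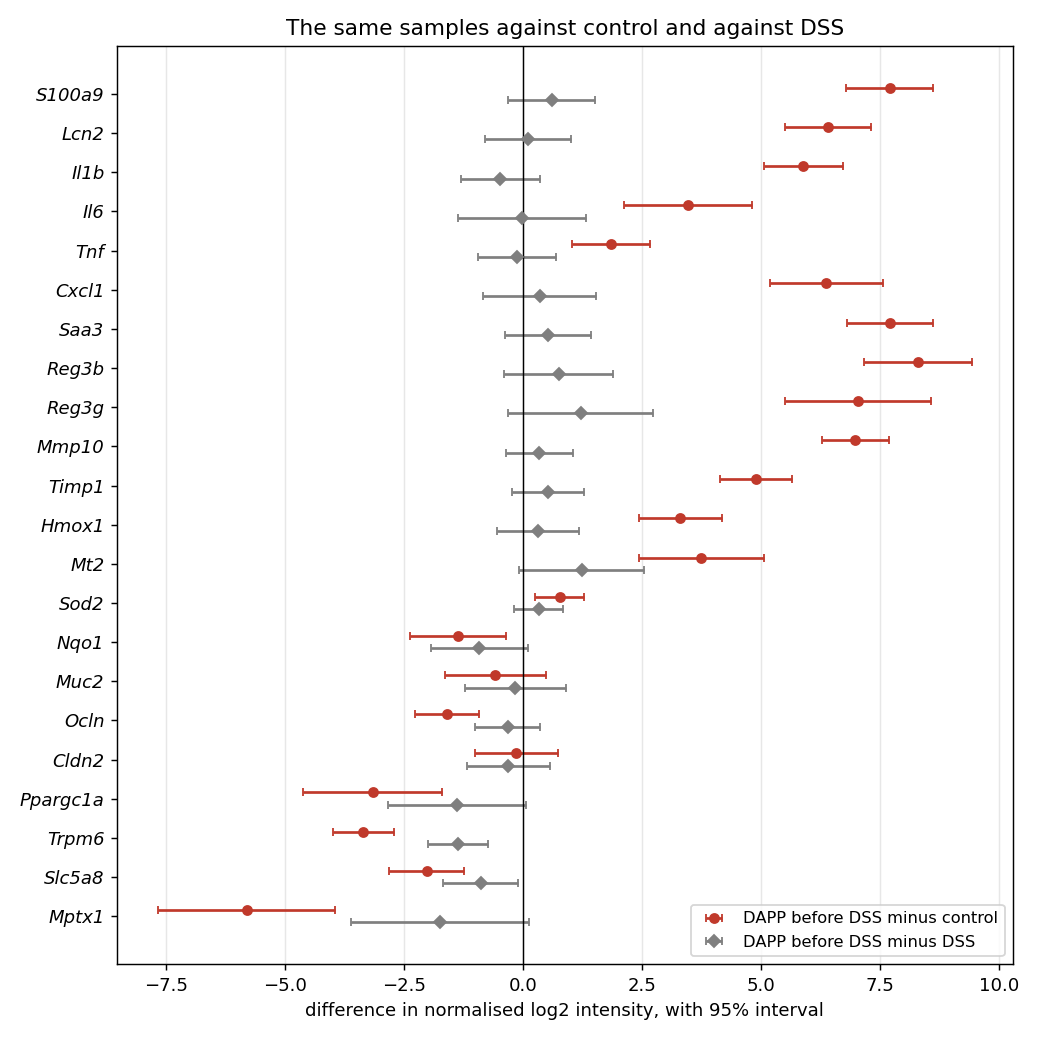
Difference in normalised log2 intensity with its 95% interval (horizontal axis) for 22 named genes, with red circles for DAPP before DSS minus control and grey diamonds for DAPP before DSS minus DSS. S100a9 stands at 7.70 against control and 0.60 against DSS, and Mptx1 at -5.80 and -1.74; both comparisons use the same 3 DAPP before DSS samples.

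The largest differences changed little when replicate 1 of DAPP before DSS was left out, while the set of genes that passed shifted. Of the 758 genes that rose 621 passed again, and of the 618 that fell 487 did; 268 calls were lost, 453 were gained, and 0 of the 1376 turned sign. S100a9 had a difference of 7.34 without it and 7.70 with it, Mmp10 7.01 and 6.98, and Mptx1 -5.97 and -5.80. The largest shifts among named genes were toward 0 for Ppargc1a (-2.20 without it and -3.15 with it) and away from 0 for Selp (4.24 and 3.24). Array weights, which estimate how well an array fits its group, gave replicate 1 a weight of 0.110, the lowest of the 12 arrays.

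**Figure D5:**
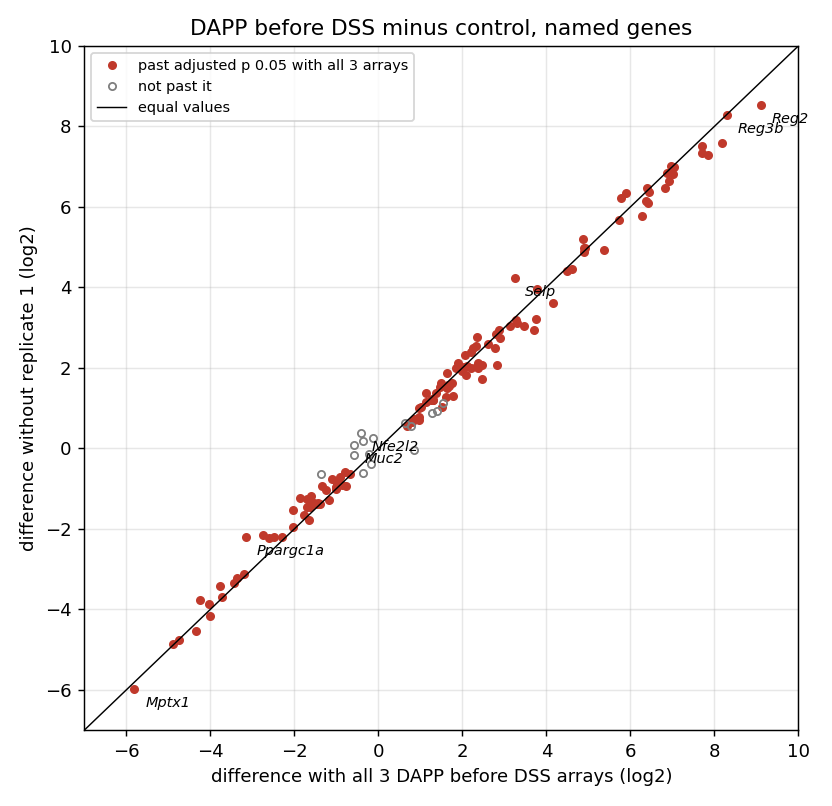
Difference of DAPP before DSS minus control in normalised log2 intensity for the named genes, with all 3 DAPP before DSS arrays (horizontal axis) and without replicate 1 (vertical axis), filled red where the adjusted p with all arrays was under 0.05 and open grey otherwise, and a line of equal values. Most genes lie near the line; Ppargc1a lies above it, at -3.15 and -2.20, and Selp above it at 3.24 and 4.24.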

How the data were processed

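Per the labels' protocols, total colon RNA was extracted with Trizol, cleaned on RNeasy columns and turned into biotin-labelled cRNA with an Ambion MessageAmp kit. The deposited table gives linear signal intensities of 45281 probes on 12 arrays. Each value is followed, per the file headers, by its detection p-value. GenomeStudio is named in the submitters' processing notes; no source used here states how background was handled, and the lowest values, well above 0, led to the inference that none was subtracted. The authors' processed intensity values, an alternative here, look quantile-normalised, since their mean is the same on every array.

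Signals were corrected for background, quantile-normalised with an offset of 16 and put on the log2 scale with limma's neqc function (R 4.3.3, limma 3.58.1). Of the 19373 probes kept, 16529 had 1 gene symbol in the platform annotation, with symbols updated through the Entrez identifier. The 4 groups entered 1 linear model of the 12 arrays (lmFit, eBayes, 8 residual and 3.83 prior degrees of freedom), with Benjamini-Hochberg adjustment over genes. Where a gene was undetected on every array of the dimmer group, its fold is a bound: the mean of the brighter group against, per array, the higher of its own level and the lowest level among detected probes (5.18 to 5.70). The number of arrays, 3 a group, limits the precision.

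The text names the 12 largest rises and falls with non-overlapping groups outside the pancreas genes, up to 4 called members of each list by lowest p, a set of genes fixed by name, and the 5 genes of lowest p against DSS. The members and lists were chosen with earlier results of these data known. Replicate numbers do not pair the samples: deviations of samples with equal numbers correlated at 0.019, -0.016 and 0.00061. The fit was tested on simulated data. Alternatives covered background, offset, scaling, filters, probe choice, array weights, a replicate block, a pancreas covariate and single arrays left out; leaving out replicate 1 before normalisation was added after seeing the data.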

Additional observations from a re-analysis of the deposited data

How the results depend on the processing

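The count of 1376 genes changed between DAPP before DSS and control was 826 with a detection p under 0.01 on all 6 arrays, where 7675 genes were tested, 800 in a fit of the 6 arrays alone, which has fewer samples, and 709 with the pancreatic enzyme mean as a covariate. The 758 rises were 412 and 486 under the first and last of these. The 618 falls were 299 with arrays scaled to a common median, 277 in the fit of 6 arrays, 932 with array weights and 223 with the covariate; the cause was not tested. Rises were 55.1% of the changed genes, and 78.7% at a common median, 65.4% in the fit of 6 arrays, 68.5% with the covariate and 44.9% when normalised again without replicate 1 of DAPP before DSS. That last setting, chosen after seeing the data, gave 1405 changed genes, 965 of them among the 1376. Leaving out 1 array gave 813 to 1574 changed genes, 495 to 828 rises and 318 to 794 falls. A replicate block gave 1422 changed genes, 802 higher and 620 lower. Against DSS the count was 0 in every setting run.

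Of 129 named genes that changed, 88 kept their call and direction in every setting that tested them, and the stricter detection filter and the normalisation without replicate 1 did not test all of them. Among all named genes the sign turned for Cd79b (-0.041 without replicate 1 of DAPP before DSS, and -0.040 when normalised again without it), Muc2 (0.086 and 0.087), Nfe2l2 (0.39 and 0.39, and 0.19 with array weights), Cldn2 (0.26 and 0.13, 0.26 with array weights and 0.073 at a common median) and Gpx1 (0.18 and 0.18, 0.081 with array weights and 0.098 at a common median). It also turned for Tfam (0.070 at a common median), Fcer2a (0.042 without replicate 2 of DAPP before DSS), Osm (-0.20 when normalised again without replicate 1) and Lyz1 (-0.91 as the mean of all kept probes). With 1 array left out, the differences ranged over -0.041 to 1.53 for Cd79b, -0.43 to 0.26 for Cldn2, -0.83 to 0.042 for Fcer2a, -0.64 to 0.18 for Gpx1, -0.92 to 0.086 for Muc2 and -1.03 to 0.39 for Nfe2l2. Of the 1376 changed genes 459 had a further kept probe, and for 37 of these a further probe had the opposite sign. List medians moved too: without background correction or on the authors' values they were 2.05 instead of 3.35 for acute phase genes, 1.66 instead of 2.65 for matrix enzymes, 1.37 instead of 2.79 for epithelial defence genes, 0.85 instead of 1.74 for T and NK cell genes and -0.63 instead of -0.99 for drug metabolism genes, and over the members passing the stricter filter 1.10 for defence genes and -0.35 for T and NK cell genes. Collagens had 0.70 with no detection filter instead of 1.19. Levels near the highest on any array, 15.09, can understate a difference, as can the offset for dim genes.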

Other observations

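Changed members of some further gene groups are given with differences as DAPP before DSS minus control. Their counts are to be read against the 7.03% of all genes tested that rose and the 5.73% that fell. Angptl4, a secreted inhibitor of lipoprotein lipase, rose by 3.28 ± 0.44 (adjusted p = 6.0e-04), with 10.55, 9.87 and 10.68 in DAPP before DSS samples and 7.70, 6.65 and 6.90 in control samples. Of 26 tested of 34 fatty acid genes it was the only one that rose, and 2 fell, the oxidation enzymes Decr1 (-1.63, detected on 2 of 3 DAPP before DSS arrays) and Acaa1a (-0.67); the number that fell was 4 without DAPP before DSS replicate 2 and 1 without any 1 of the 3 control replicates. Cck, or cholecystokinin, a peptide hormone, had 8.02, 7.31 and 7.12 in DAPP before DSS samples and 5.71, 5.10 and 5.37 in control samples, where 1 of 3 arrays detected it, a difference of 2.09 ± 0.29 (SE, adjusted p = 7.4e-04). It and Tac1 (1.63), the substance P precursor, were the 2 of 15 tested of 21 enteroendocrine genes that rose, and none fell. The median of the 15 was -0.07. Among the 12 detected on all 6 arrays 1 rose (8.33%), near the 5.78% of all genes so detected. Among 13 tested of 19 circadian clock genes Dbp, an output factor, fell by 2.48 ± 0.35 (adjusted p = 9.5e-04), Clock stood at -1.01, also past the threshold, and Per1 rose by 1.48. Without DAPP before DSS replicate 1, 4 clock genes fell, and the rise of Per1 was not called without control replicate 1 (0.054) or 2 (0.066), as adjusted p; the hours of sampling are not stated in the labels. Ano1, the chloride channel of the pacemaker cells of the gut wall, had 8.11, 8.91 and 8.69 in DAPP before DSS samples and 10.25, 10.23 and 10.31 in control samples, a difference of -1.69 ± 0.31 (SE, adjusted p = 0.0040). Rbp2, an intestinal retinol carrier, stood at 5.72, 5.88 and 6.17 in DAPP before DSS samples and 8.42, 8.17 and 8.08 in control samples, a difference of -2.30 ± 0.31 (SE, adjusted p = 5.8e-04). Of 27 tested of 35 cell cycle genes 1 fell, the inhibitor Cdkn1a (-0.91, adjusted p = 0.030), which did not pass without DAPP before DSS replicate 1 (adjusted p = 0.063) or without control replicate 1, 2 or 3 (0.12, 0.059 and 0.064), and of 18 tested of 25 cholesterol genes 0 changed. At the level of single probes 1885 of 19373 changed, 1042 of them higher, and 212 of the 1885 had no gene symbol in the annotation.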
